A study of Sus scrofa with 30 samples.

Results

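The genes described here build sterols and fatty acids, control that synthesis, or take up, bind, activate or store lipids. They were measured by RNA-seq in single pig embryos. A list of 44 genes was taken by symbol from both pathways, and 41 of them were found among the 13103 genes of the table of all embryos. The sterol arm had 17 of 18 genes in the table, the fatty acid arm 19 of 21 and the regulators 5 of 5. Besides the enzymes of synthesis, desaturation and elongation, the fatty acid arm holds genes of uptake, binding, activation and storage. IDI1, CD36 and DGAT2 were not matched to the table by symbol, CYP51A1 is listed in it as CYP51, and LSS lies on a scaffold that is not placed on a chromosome of the assembly Sscrofa11.1. The 30 embryos were whole embryos, with embryonic disc and trophectoderm, flushed on Day 8, Day 10 or Day 12 after insemination, 5 female and 5 male embryos on each day. Their dams were German Landrace × Pietrain gilts, 4 slaughtered per day, and a single Pietrain boar sired all embryos. No treatment or genotype separated the groups. The gilt of each embryo was not given and embryos of a day included littermates, so the p-values measure the spread between embryos and not between litters.

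Both pathways start from acetyl-CoA. Acetyl-CoA made from citrate is condensed in the mevalonate pathway to isoprenoids, squalene, lanosterol and cholesterol, or it is carboxylated and lengthened to palmitate, which is then desaturated, elongated, bound to coenzyme A and stored in triacylglycerols. The SREBP transcription factors are held in the endoplasmic reticulum by SCAP and the INSIG proteins while sterols are plentiful. They are released and raise transcription of both sets of enzymes when sterols run low, with SREBF2 linked mainly to sterol genes and SREBF1 to fatty acid genes. In this period the pig blastocyst changes from a sphere to a long filament.

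The counts assigned to genes ran from 6068212 to 34002508 per embryo with a median of 22202724 over the 30 libraries. Levels are TMM-normalized CPM, and genes are compared between days and not with each other, because CPM is not scaled to gene length. Of the markers used to check the tissue, the 6 trophectoderm genes summed to medians of 23664, 42265 and 13108 CPM on Days 8, 10 and 12. Medians of the 4 epiblast genes were 158, 128 and 43.8 CPM and those of the 5 hypoblast genes 243, 140.0 and 319 CPM. Single genes did not all follow the sum of their list. KRT8 and KRT18 made up most of the trophectoderm sum. From Day 10 to Day 12 their log2 fold changes were -1.26 and -2.21. CDX2 had -1.42, TFAP2C 0.003, GATA2 0.38 and GATA3 1.23. LIN28A made up most of the epiblast sum. Its change was -0.02 from Day 8 to Day 10, where POU5F1, NANOG and SOX2 had -0.71 to -1.10. From Day 8 to Day 12 GATA6 had -1.68 and the other hypoblast genes 0.81 to 2.08. None of the 4 leukocyte markers was in the table. These marker sums moved with the days, their part in the differences between days was not tested, and in whole embryos fewer cells of a type cannot be told apart from less RNA per cell.

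The sterol arm and the fatty acid arm both had a positive median fold change from Day 8 to Day 10, and their medians had opposite signs from Day 10 to Day 12. Differential expression (DEG) between days required that a gene change by more than 1 on the log2 scale with an FDR below 0.001 in edgeR's quasi-likelihood test over all genes, and the comparisons between days share embryos. From Day 8 to Day 10, 14 of the 41 genes rose and 1 fell, where 9.88% of all genes tested rose and 4.20% fell. The sterol arm had 7 genes that rose and none that fell, with a median log2 fold change of 0.76 over its 17 genes, against 0.03 over all genes. In the fatty acid arm 5 genes rose and 1 fell, with a median of 0.50, and 2 of the 5 regulators rose, with a median of 0.54. From Day 10 to Day 12, 2 genes rose and 8 fell, where 14.9% of all genes rose and 8.39% fell. The sterol arm then had a median log2 fold change of 0.45 with 2 genes that rose and 1 that fell, and the fatty acid arm one of -0.52 with no gene that rose and 6 that fell. Averaged over the sterol arm, male d12_m_307 lay 0.95 above the Day 12 mean on the log2 scale, and the next highest embryo 0.28. The median of the sterol arm without male d12_m_307 is not given here. Within the fatty acid arm, the 3 genes of palmitate synthesis had a median of -0.09 and none was called. Medians were -0.63 for the 6 genes of desaturation and elongation (2 fell), -1.17 for the 7 of uptake, binding and activation (3 fell) and -0.48 for the 3 of glycerolipids (1 fell). The median over all genes was 0.04 in that interval, and among the regulators SREBF1 fell.

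Over the whole interval from Day 8 to Day 12, 13 genes rose and 3 fell, where 22.0% of all genes rose and 10.4% fell. The sterol arm held 9 of the 13, with a median log2 fold change of 1.15 and no gene that fell, and the fatty acid arm 2 that rose and 3 that fell, with a median of -0.03. Only ELOVL6, ACSL3 and FABP3 rose to Day 10 and fell again to Day 12, which is 3 of 41 genes where 2.71% of all genes had this profile. These counts depend on the scaling. With library size alone in place of TMM factors, the median of all genes moved from 0.03 to -0.15 for Day 10 over Day 8 and from 0.04 to 0.24 for Day 12 over Day 10. The counts then became 7 genes higher and 2 lower in the first interval, where 7.84% of all genes were higher and 6.19% lower. In the second interval they became 4 higher and 5 lower, where 18.3% of all genes were higher and 6.80% lower.

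**Figure D1:**
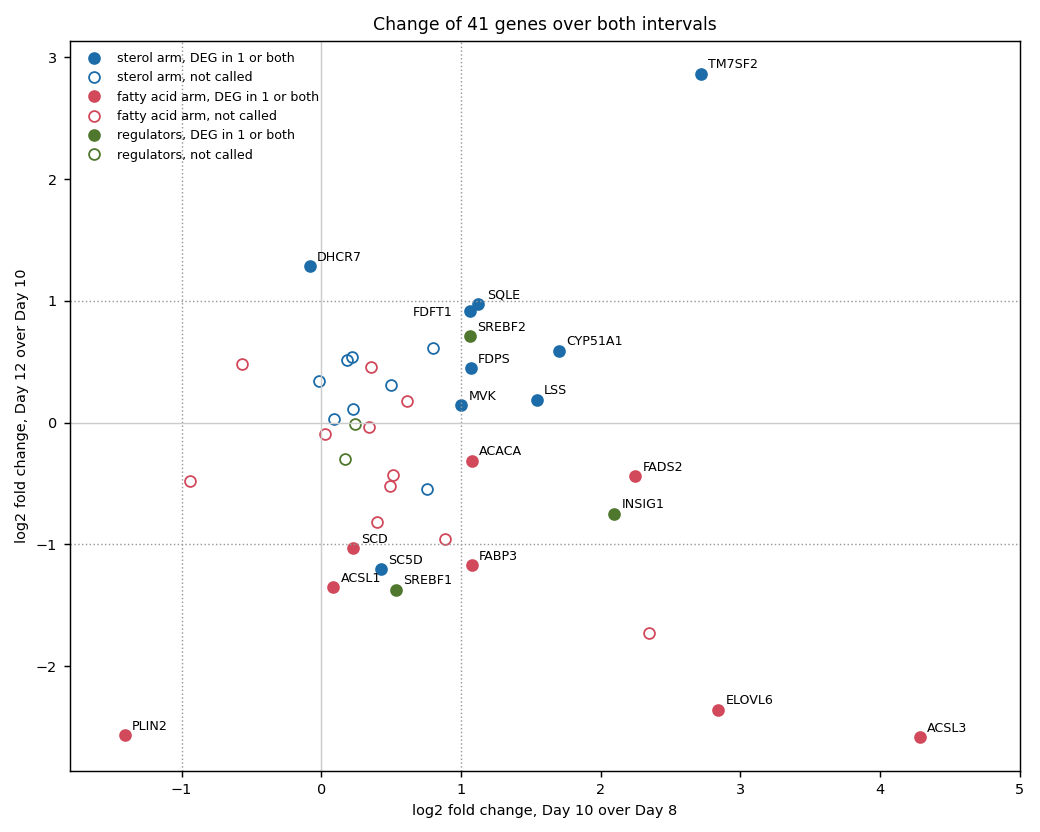
Log2 fold change of each of the 41 genes from Day 8 to Day 10 (horizontal axis) and from Day 10 to Day 12 (vertical axis), coloured by arm; filled, named points are DEG in 1 or both intervals, and dotted lines mark a log2 fold change of 1 in either direction. Sterol genes (blue) lie mostly at the upper right and fatty acid genes (red) mostly at the lower right, with ACSL3 at 4.28 and -2.59 and PLIN2 at -1.41 and -2.57; the horizontal position of TM7SF2, nearly absent on Day 8, depends on the prior count.

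The mevalonate pathway had 6 of its 7 genes in the table, and 2 of them rose from Day 8 to Day 10, where 9.88% of all genes rose. FDPS, which makes farnesyl diphosphate, ran from 40.5 to 62.4 CPM on Day 8 (median 50.4), from 89.6 to 133.5 on Day 10 (median 102) and from 90.2 to 269 on Day 12 (median 132). Every Day 10 embryo was above every Day 8 embryo, while Days 10 and 12 overlapped. It rose by a log2 fold change of 1.07 ± 0.15 (SE, adjusted p = 7.75e-07) to Day 10, a call that was lost with library size alone (0.89) and in male embryos alone (1.03, FDR missed). MVK, mevalonate kinase, had medians of 9.97, 20.4 and 21.5 CPM on Days 8, 10 and 12, and its Day 8 values (8.91 to 12.6) lay below all Day 10 values (14.5 to 28.4). It rose by 1.002 ± 0.13 (adjusted p = 1.69e-07), just past the threshold. The call was lost with sex as a term (0.9993), in the robust GLM (0.99), in male embryos alone (0.92) and with library size alone (0.81).

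HMGCS1 makes HMG-CoA, the precursor of mevalonate. Its range was 81.5 to 114 CPM on Day 8 (median 103.3), 142 to 223 on Day 10 (median 175) and 61.1 to 596 on Day 12 (median 275.4). The Day 8 and Day 10 embryos did not overlap, but Day 12 spread over a range of 9.76 times that enclosed all other embryos from above and below. HMGCS1 was not called in either interval (log2 fold change 0.80, adjusted p = 0.00279, and 0.61, adjusted p = 0.0168) and rose over the whole interval (1.41 ± 0.22, adjusted p = 1.49e-06). ACAT2, which joins 2 acetyl-CoA, had medians of 98.2, 102 and 107 CPM on the 3 days and was not called in any comparison. It overlaps TCP1 in the annotation. MVD, which yields isopentenyl diphosphate, had medians of 51.4, 63.3 and 44.7 CPM and was not called either. PMVK, phosphomevalonate kinase, went from a median of 18.8 CPM to 29.4 and 19.4, and its log2 fold changes of 0.76 (adjusted p = 1.28e-05) and -0.55 (adjusted p = 0.000564) passed the FDR but not the fold threshold.

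Of the 11 genes that lead from farnesyl diphosphate to cholesterol, 5 rose from Day 8 to Day 10, where 9.88% of all genes rose. On Day 12, 6 of the 11 were higher than on Day 8, where 22.0% of all genes were. FDFT1, squalene synthase, ranged from 9.55 to 16.6 CPM on Day 8 (median 12.5), 21.3 to 39.3 on Day 10 (median 24.0) and 25.6 to 132.98 on Day 12 (median 41.1). SQLE, squalene epoxidase, had medians of 7.87, 18.4 and 29.3 CPM, and its Day 8 range (5.76 to 12.5) touched that of Day 10 (12.3 to 22.5). LSS, which closes squalene epoxide to lanosterol, went from 8.95 to 16.8 CPM (median 12.0) to 20.8 to 47.2 (median 38.7) and stayed near that level on Day 12, at 27.8 to 54.0 (median 39.7). FDFT1 and LSS separated Day 8 from Day 10 in every embryo. From Day 8 to Day 10 FDFT1 rose by 1.07 ± 0.21 (adjusted p = 7.78e-05), SQLE by 1.12 ± 0.25 (adjusted p = 0.000396) and LSS by 1.54 ± 0.15 (adjusted p = 8.94e-10). With library size alone the calls of FDFT1 (0.88) and SQLE (0.94) were lost, as they were in male embryos alone, and that of SQLE also in female embryos alone. In the second interval the 3 genes had log2 fold changes of 0.92, 0.97 and 0.19, none of them called.

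CYP51A1 removes the first methyl group of lanosterol. Its values were 6.18 to 22.4 CPM on Day 8 (median 12.5), 33.4 to 57.0 on Day 10 (median 45.8) and 35.4 to 204 on Day 12 (median 55.0). Day 8 lay apart from both later days, which overlapped each other. CYP51A1 rose by 1.70 ± 0.25 (adjusted p = 1.50e-06) to Day 10, and in male embryos alone its change of 1.48 missed the FDR. TM7SF2, a sterol reductase, was hardly detected on Day 8, with 0 to 6 counts per embryo and 3 counts or fewer in 6 of 10 embryos. It ranged from 0.364 to 1.59 CPM on Day 10 (median 0.881) and from 2.90 to 16.6 on Day 12 (median 5.69), so the 3 days did not overlap. Summed over embryos, its Day 10 counts, scaled to library size, were 6.69 times those of Day 8, with a 95% exact interval for counting error only of 4.54 to 10.2. It rose again to Day 12 by a log2 fold change of 2.86 ± 0.33 (adjusted p = 5.87e-09).

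The last steps of cholesterol synthesis did not move together. DHCR7, which makes cholesterol from its direct precursor, ranged from 23.9 to 45.3 CPM on Day 8 (median 37.8), 28.1 to 47.2 on Day 10 (median 32.7) and 54.5 to 126 on Day 12 (median 82.5). Days 8 and 10 overlapped almost fully, and every Day 12 embryo was above both. It rose by 1.28 ± 0.13 (adjusted p = 2.58e-10) from Day 10 to Day 12. SC5D, the desaturase that acts just before it, had medians of 25.2, 34.1 and 13.8 CPM, with 26.8 to 43.0 CPM on Day 10 and 8.25 to 35.0 on Day 12. SC5D fell by 1.204 on the log2 scale (SE 0.18, adjusted p = 6.08e-07), a call that was lost with library size alone and in male embryos alone. MSMO1, NSDHL, HSD17B7 and EBP, which act between CYP51A1 and SC5D, were not called in any comparison. EBP had medians of 54.9, 62.7 and 78.9 CPM, HSD17B7 6.76, 9.53 and 10.5, NSDHL 50.5, 52.7 and 49.3, and MSMO1 32.1, 35.8 and 43.5.

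**Figure D2:**
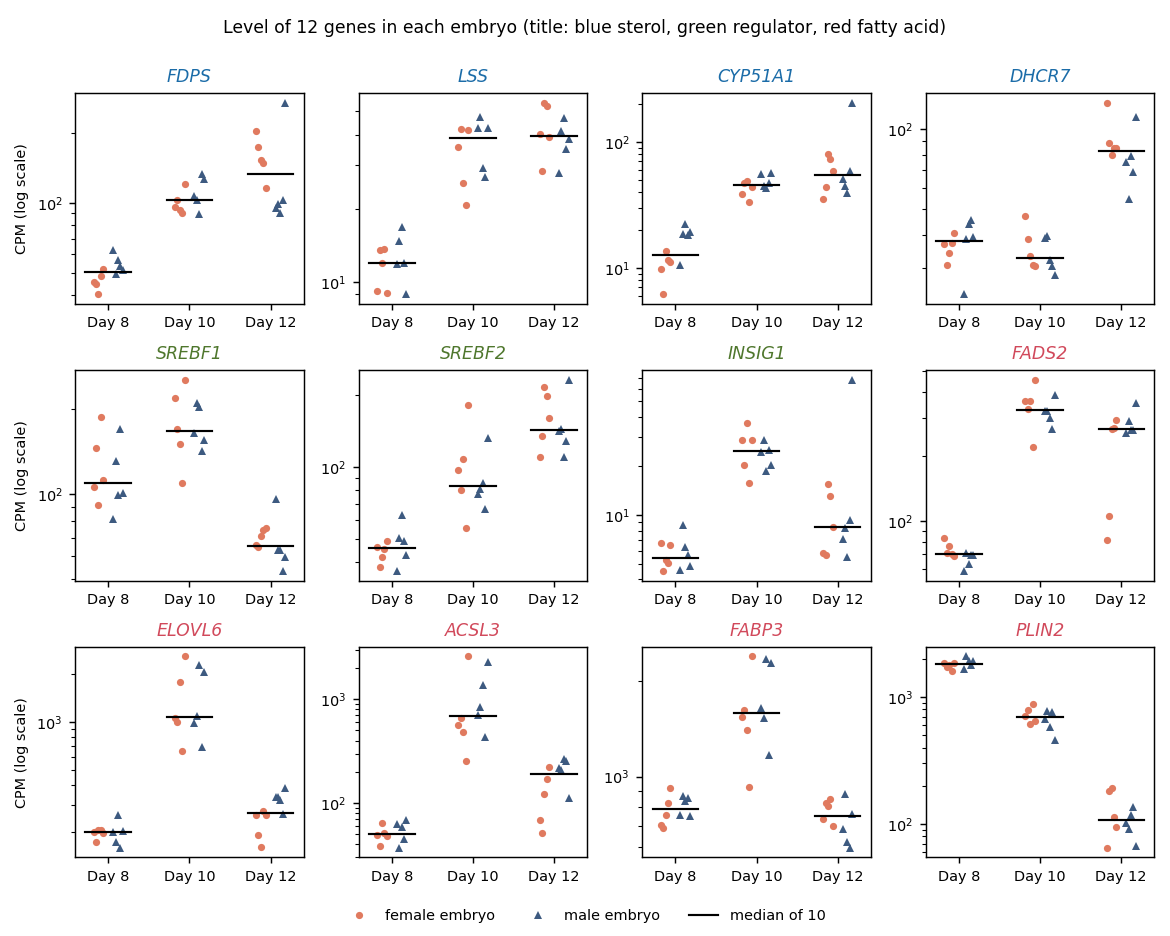
CPM (log scale) of 12 genes in each of the 10 embryos per day, female embryos as circles and male embryos as triangles, with the median of the day as a line. ELOVL6, ACSL3 and FABP3 were highest on Day 10, SREBF2 and DHCR7 on Day 12, and PLIN2 on Day 8, and a single male embryo of Day 12 stands above the others in INSIG1 (68.1 CPM) and CYP51A1 (204 CPM).

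The 2 SREBP genes took different courses. SREBF2 (chr5:6719484-6784724) ranged from 36.8 to 63.1 CPM on Day 8 (median 45.9), 55.9 to 183 on Day 10 (median 83.5) and 110.1 to 233 on Day 12 (median 144). Neighbouring days overlapped, but Days 8 and 12 did not. It rose by 1.07 ± 0.17 (adjusted p = 4.77e-06) to Day 10, had a log2 fold change of 0.71 (adjusted p = 0.000617, under the fold threshold) in the second interval, and rose by 1.77 ± 0.17 (adjusted p = 1.73e-10) from Day 8 to Day 12. The Day 10 call of SREBF2 was lost with library size alone (0.86), in the robust GLM (0.95) and in embryos of either sex alone. SREBF1 (chr12:60733967-60750951) ranged from 81.6 to 187 CPM on Day 8 (median 109.02), 109.2 to 255 on Day 10 (median 167) and 53.3 to 95.6 on Day 12 (median 65.5). Its Day 12 embryos were all below the Day 10 embryos. SREBF1 fell by 1.37 on the log2 scale from Day 10 to Day 12 (SE 0.15, adjusted p = 2.27e-09).

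INSIG1, a target of SREBP that retains SCAP, lies at chr18:2885494-2898758. It ranged from 4.51 to 8.65 CPM on Day 8 (median 5.45), from 15.8 to 36.7 on Day 10 (median 24.7) and from 5.50 to 68.1 on Day 12 (median 8.39). Days 8 and 10 did not overlap, and 9 of the 10 Day 12 embryos were below all Day 10 embryos, while the remaining embryo was above them all. INSIG1 rose by 2.10 ± 0.35 (adjusted p = 9.65e-06) to Day 10, and in male embryos alone its change of 1.97 missed the FDR. From Day 10 to Day 12 its log2 fold change was -0.75 (adjusted p = 0.0566), and without that embryo, male d12_m_307, it fell by 1.498 on the log2 scale and was called, as it was by the robust GLM with all embryos. SCAP, the escort of SREBP, had medians of 74.9, 89.9 and 89.9 CPM and INSIG2 had 14.0, 15.2 and 13.3, and neither was called in any comparison.

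The 3 enzymes that make palmitate differed in their course. ACACA, acetyl-CoA carboxylase, ranged from 87.1 to 135 CPM on Day 8 (median 113), 185 to 296.995 on Day 10 (median 241) and 120.8 to 236 on Day 12 (median 189). Day 8 and Day 10 did not overlap, and ACACA rose by 1.08 ± 0.11 (adjusted p = 6.82e-10), a call that was lost with library size alone (0.89). FASN, fatty acid synthase, had medians of 438, 694 and 848 CPM and log2 fold changes of 0.62 (adjusted p = 0.000173) and 0.18, under the fold threshold. ACLY, which releases acetyl-CoA from citrate, had medians of 220.0, 222 and 218 CPM and was not called in any comparison.

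Among the enzymes of desaturation and elongation, ELOVL6 and FADS2 rose and ELOVL6 and SCD fell. ELOVL6, which lengthens palmitate to stearate, lies at chr8:112038670-112190079. It ranged from 160.0 to 259 CPM on Day 8 (median 202), 652 to 2599 on Day 10 (median 1076) and 163 to 379.8 on Day 12 (median 267). The Day 10 embryos were all above the embryos of the other days, and the highest of them had 3.98 times the level of the lowest. ELOVL6 rose by 2.84 ± 0.22 (adjusted p = 3.59e-12) and fell by 2.36 on the log2 scale (SE 0.21, adjusted p = 4.37e-11). FADS2, the delta-6 desaturase of polyunsaturated fatty acids, ranged from 58.6 to 82.9 CPM on Day 8 (median 70.1), 221 to 455 on Day 10 (median 328) and 81.3 to 355 on Day 12 (median 268). It rose by 2.25 ± 0.18 (adjusted p = 1.13e-11) and was not called in the second interval (-0.44, adjusted p = 0.0279). FADS2 (chr2:9633941-9666666) overlaps 2 other annotated genes, of which LOC100739565 is in the count table. Its neighbour FADS1 (chr2:9735425-9747405), the delta-5 desaturase, had medians of 84.6, 114 and 94.6 CPM and was not called.

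SCD, which places the double bond in oleate, ranged from 1534 to 2213 CPM on Day 8 (median 1774), 1801 to 2621 on Day 10 (median 2119) and 384 to 2046 on Day 12 (median 994). All Day 12 embryos but male d12_m_307 were below the Day 8 and Day 10 embryos. SCD fell by 1.03 on the log2 scale from Day 10 to Day 12 (SE 0.16, adjusted p = 1.83e-06). That change was -0.93 without female embryo d12_f_245, -0.83 with library size alone and -0.73 in male embryos alone, under the fold threshold in each. ELOVL5, an elongase of polyunsaturated fatty acids, had medians of 213, 274.7 and 167 CPM and every Day 12 embryo (85.5 to 238) below every Day 10 embryo (252 to 346). Its log2 fold change of -0.82 (adjusted p = 9.37e-07) did not pass the fold threshold. ELOVL1, which lengthens very long chains, had medians of 57.5, 71.6 and 103.3 CPM and was not called.

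Among the genes of uptake, binding and activation, ACSL3 and FABP3 rose and ACSL1, ACSL3 and FABP3 fell. ACSL3 (chr15:124741986-124816955) links fatty acids to coenzyme A at the endoplasmic reticulum and on nascent lipid droplets. It ranged from 37.0 to 68.5 CPM on Day 8 (median 50.5), 252 to 2586 on Day 10 (median 686) and 51.9 to 267 on Day 12 (median 189). Day 8 and Day 10 did not overlap, and the highest Day 10 embryo had 10.3 times the level of the lowest. ACSL3 rose by 4.28 ± 0.38 (adjusted p = 8.15e-11), the highest log2 fold change of the 41 genes in that interval, and fell by 2.59 on the log2 scale (SE 0.35, adjusted p = 1.51e-07). ACSL1 (chr15:45866858-45936327), another acyl-CoA synthetase, had 309 to 405 CPM on Day 8 and 334 to 418 on Day 10, which overlapped, and 73.6 to 213 on Day 12, below both. It fell by 1.35 on the log2 scale (SE 0.12, adjusted p = 7.56e-11) from Day 10 to Day 12.

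FABP3, a fatty acid binding protein of the cytosol, ranged from 687 to 920.0 CPM on Day 8 (median 793), 924 to 2386 on Day 10 (median 1582) and 597 to 881 on Day 12 (median 751). Every Day 10 embryo was above all embryos of the other days, the lowest of them by a narrow margin. FABP3 rose by 1.08 ± 0.13 (adjusted p = 2.76e-08) and fell by 1.17 on the log2 scale (SE 0.13, adjusted p = 2.59e-09), and with library size alone both changes were under the fold threshold (0.88 and -0.95). FABP5 had medians of 14.4, 12.2 and 13.2 CPM and on Day 10 ran from 4.41 to 52.0, and it was not called. LPL, the lipase that frees fatty acids from lipoproteins, had medians of 1.26, 7.24 and 1.30 CPM. Its log2 fold changes of 2.35 ± 0.60 (adjusted p = 0.00143) and -1.73 ± 0.58 (adjusted p = 0.0118) missed the FDR, and the robust GLM called both. ACSL4 had medians of 2.07, 3.86 and 1.72 CPM and SCARB1, a lipoprotein receptor, 38.7, 26.7 and 41.3, and neither was called.

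Of the 3 genes of triacylglycerol synthesis and storage, PLIN2 fell in both intervals and GPAM over the whole time. PLIN2, the coat protein of lipid droplets, lies at chr1:203683867-203709277 and overlaps LOC100737553. It ranged from 1618 to 2089 CPM on Day 8 (median 1834), 457 to 880.2 on Day 10 (median 691) and 64.96 to 193 on Day 12 (median 108). No embryo of a later day reached the level of an earlier day. PLIN2 fell by 1.41 on the log2 scale to Day 10 (SE 0.15, adjusted p = 5.26e-09) and by 2.57 to Day 12 (SE 0.16, adjusted p = 7.66e-15), and it was the only one of the 41 genes that fell in both intervals. GPAM, the first acyltransferase of glycerolipid synthesis, had 241 to 364 CPM on Day 8 (median 263), 114 to 192 on Day 10 (median 136.3) and 48.6 to 158 on Day 12 (median 110.3). Day 8 lay above both later days, and GPAM fell over the whole interval by 1.42 on the log2 scale (SE 0.15, adjusted p = 7.90e-10) but not by enough in either part of it to be called (-0.94 and -0.48). DGAT1, which adds the last acyl chain and overlaps HSF1, had medians of 18.9, 24.6 and 19.9 CPM and was not called.

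The embryos of Day 10 differed widely among themselves in the genes that peaked on that day. An index of the Day 10 peak was taken for each embryo as its mean log2 deviation over 352 genes outside the list that rose to Day 10 and fell to Day 12, and it ran from -0.82 in female d10_f_433 to 0.65 in female d10_f_454. The index and the levels come from the same libraries, so the coefficients that follow are descriptions over 10 embryos. The index also varied with the TMM factor (r = -0.93) and with the total count (r = 0.59). The part of either in these relations was not tested.

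The coefficient with this index was higher for the fatty acid arm than for the sterol arm. The mean of the fatty acid arm had r = 0.88 (Spearman's rho 0.84) with the index, and r = 0.73 without the 2 embryos farthest from the median. For the mean of the sterol arm r was 0.46 with a rho of 0.05, and it turned to -0.14 without the 2 embryos, to -0.13 with library size alone and to -0.86 in the 6 embryos numbered in the 300s. Between both arms r was 0.61 and rho 0.28, with r = 0.06 without 2 embryos. No test was made of the difference between arms. The fatty acid arm holds ELOVL6, ACSL3 and FABP3, which had the same profile over the days by which the index genes were chosen, and no sterol gene had it. The part of this in the coefficients of the arms was not tested.

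Single genes ranged from r = 0.96 to -0.81 with the index. ELOVL6 had r = 0.96 (rho 0.96), FABP3 0.92 (0.77), SREBF2 0.90 (0.95), ACSL3 0.89 (0.81), ELOVL5 0.89 (0.90), FADS2 0.86 (0.77), SCD 0.81 (0.79) and TM7SF2 0.80 (0.73). These 8 of 41 genes had an r of at least 0.8, where 10.2% of all genes did. GPAM (-0.81), PLIN2 (-0.80) and ACAT2 (-0.77) were under -0.7, where 17% of all genes were. SREBF1 had r = 0.67, HMGCS1 -0.02 and FASN 0.36. In those 6 embryos, ELOVL6 kept r = 0.98, ELOVL5 0.87, PLIN2 -0.84 and GPAM -0.88, while SREBF2 had 0.53, FABP3 0.51, ACSL3 0.41, SCD 0.04, TM7SF2 -0.097 and FADS2 -0.21. The 4 embryos with higher numbers stood at both ends of the index, and what the numbers mean was not given.

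**Figure D3:**
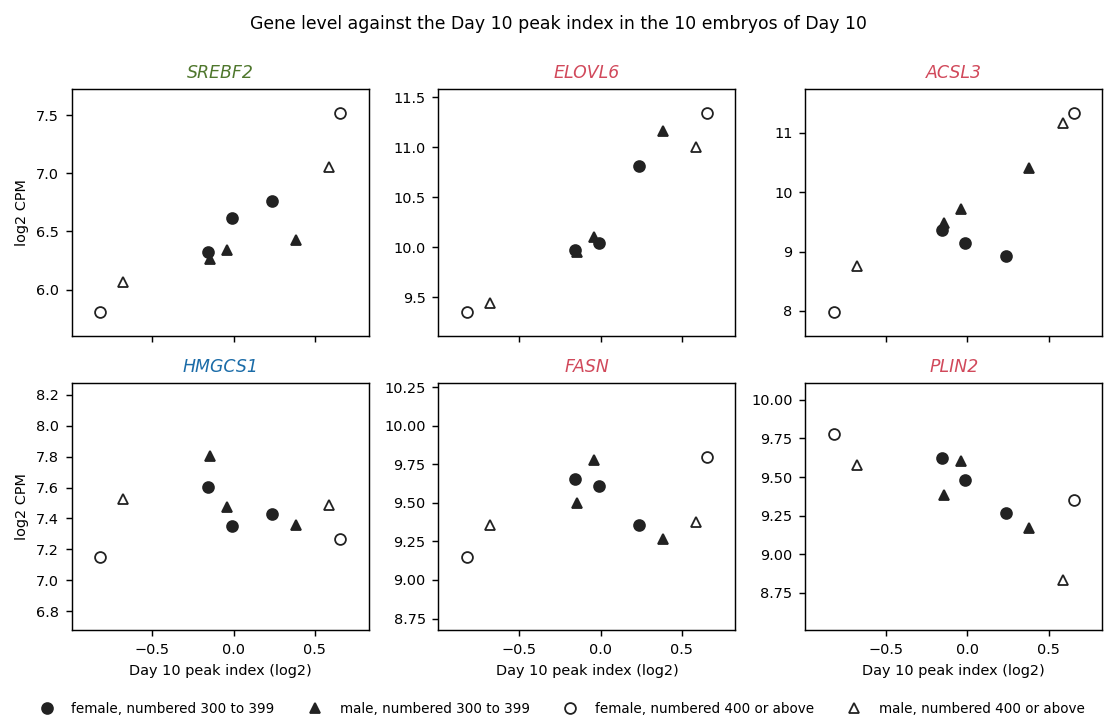
Log2 CPM of 6 genes (vertical axes, which differ in position) against the Day 10 peak index in log2 units (horizontal axis) in the 10 embryos of Day 10; circles are female, triangles male, and open symbols the 4 embryos with higher numbers. SREBF2, ELOVL6 and ACSL3 rise with the index (r = 0.90, 0.96 and 0.89), PLIN2 declines (r = -0.80), and HMGCS1 and FASN have no clear slope (r = -0.02 and 0.36).

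The same embryos held the extremes of several genes. Female d10_f_433, which had the lowest index, was lowest of the 10 embryos in 11 of 19 genes of the fatty acid arm, 8 of 17 of the sterol arm and in SREBF1, SREBF2 and INSIG1, where it was lowest in 15.2% of all genes. Female d10_f_454, with the highest index, was highest in 9 of 19 fatty acid genes and in SREBF1 and SREBF2, where it was highest in 17.7% of all genes. For ACSL3 the values were 252 CPM in female d10_f_433 and 2586 in female d10_f_454, with 2291 in male d10_m_453 and 432 in male d10_m_435. The markers of each cell type had coefficients of either sign with the index, from -0.75 (GATA2) to 0.48 (TFAP2C) over the 6 trophectoderm genes, from -0.38 (NANOG) to 0.63 (LIN28A) over the 4 epiblast genes and from -0.77 (GATA6) to 0.84 (HNF4A) over the 5 hypoblast genes. KRT8, the most abundant trophectoderm marker, had -0.004.

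On Day 12 the sterol genes had a wider spread than on the days before, as did all genes. The median SD of log2 CPM over the 17 sterol genes was 0.20 on Day 8, 0.25 on Day 10 and 0.53 on Day 12, against 0.23, 0.29 and 0.45 over all genes, and it was 0.41 on Day 12 without male d12_m_307, against 0.45 over all genes. Male d12_m_307 was the highest of the 10 embryos in 10 of 17 sterol genes and in 8 of 19 fatty acid genes, where it was highest in 13.7% of all genes. Its median excess over the median of the other 9 embryos was 1.15 on the log2 scale in the sterol arm and 0.27 in the fatty acid arm. It had 68.1 CPM of INSIG1, where the other 9 ran from 5.50 to 15.6. For CYP51A1 it had 204 CPM against at most 80.5 in the others, for MSMO1 180.1 against at most 62.3, for SQLE 108.6 against at most 43.2 and for HMGCS1 596 against at most 334. SREBF2 was also highest in this embryo, at 233 CPM, but female d12_f_289 was close, at 218. The remaining sterol genes, PMVK, MVD, LSS, TM7SF2, NSDHL, EBP and DHCR7, were not highest in male d12_m_307.

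Male d12_m_307 had 23128838 counts, a total near the median, and the lowest PLIN2 level but 1, at 67.7 CPM. Its summed epiblast markers were the highest of Day 12, at 153 CPM, but nearly all of that sum was LIN28A, at 151.6 CPM. Its summed trophectoderm markers, mostly KRT8 and KRT18, were the 3rd highest, at 18726 CPM. Its summed hypoblast markers were the 2nd lowest, at 168 CPM. The part of cell makeup in its sterol genes was not tested. Without it, the calls between Days 10 and 12 went from 10 to 12, as INSIG1 and ACSL4 were then called lower, where 15.1% of all genes were higher and 8.40% lower. Female d12_f_245, the smallest library, went the other way in the fatty acid arm, where it was lowest in 10 of 19 genes, and it was lowest in 29.3% of all genes. The same embryo was highest in ELOVL1 and FABP5 and in 4 of 17 sterol genes (MVD, NSDHL, EBP and DHCR7). It was lowest in 5 other sterol genes, and highest in 20.1% of all genes. It had 22.7 CPM of FADS1 where the others ran from 55.7 to 146, and 61.1 CPM of HMGCS1 where the others started at 104. Across the 10 embryos of Day 12, SREBF2 and the mean of the sterol arm had r = 0.79 (rho 0.66), which was 0.54 without the 2 embryos farthest in SREBF2. On Day 8 the same pair had r = 0.86 (rho 0.85) and on Day 10 r = 0.42 (rho 0.042), which turned to -0.87 in the 6 embryos numbered in the 300s. SREBF2 and the fatty acid arm had r = 0.80 (rho 0.70) on Day 10, with 0.60 without 2 embryos and -0.15 in those 6 embryos. SREBF1 and the fatty acid arm had r = -0.03, 0.71 and 0.21 on Days 8, 10 and 12, and the Day 10 value was 0.11 without 2 embryos.

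**Figure D4:**
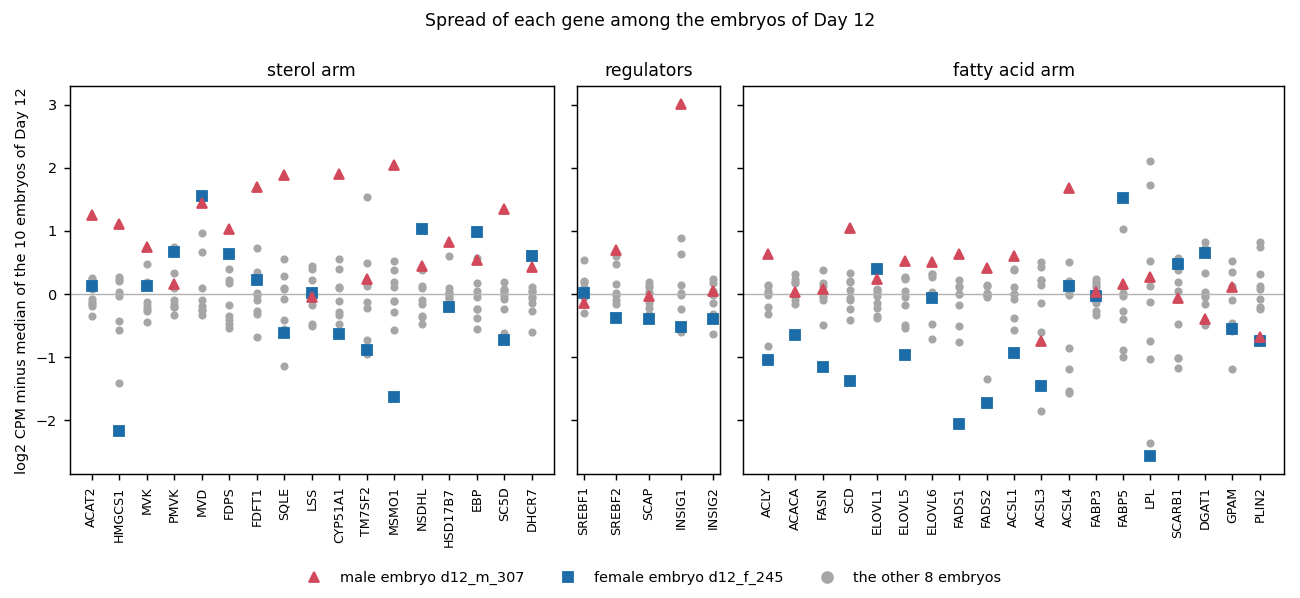
Log2 CPM of each gene in the 10 embryos of Day 12 as the difference from the median of the day (vertical axis), with the genes of each arm along the horizontal axis. Male embryo d12_m_307 (red triangles) is highest in 10 of 17 sterol genes and in INSIG1. Female embryo d12_f_245 (blue squares), the smallest library, is lowest in 10 of 19 genes of the fatty acid arm, and highest in 4 and lowest in 5 of the sterol genes.

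No gene of the list differed between female and male embryos on any day at an FDR of 0.05 in edgeR's quasi-likelihood test of 5 against 5 embryos. In the tables of the single days, 40 of the genes were tested on Day 8 (TM7SF2 was not in that table) and 41 on Days 10 and 12. The share of all genes called was 0.658% for Day 8, 0.223% for Day 10 and 0.123% for Day 12. Without adjustment, p was below 0.05 for 5 genes of the list on Day 8, where 4.59% of all genes were, none on Day 10 (2.36%) and 7 on Day 12 (22.7%). DESeq2 also called none on the 3 days, and the robust GLM called CYP51A1 on Day 8, where it called 1.37% of all genes, and none on the other days. CYP51A1 had 10.4 ± 2.72 CPM in female and 17.8 ± 4.37 in male embryos of Day 8 (mean ± SD, n = 5 each), with overlapping ranges, a log2 ratio of female over male of -0.76 ± 0.22 and an adjusted p of 0.352 over the genes of the day.

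On Day 12 the genes nearest to a sex difference were ACSL1 and ELOVL5. ACSL1 ranged from 73.6 to 141 CPM in females and from 140.6 to 213 in males (log2 ratio -0.64 ± 0.19, unadjusted p = 0.00597, adjusted p = 0.198, edgeR). ELOVL5 ranged from 85.5 to 172 CPM in females and from 161 to 238 in males (-0.61 ± 0.18, unadjusted p = 0.00606, adjusted p = 0.198, edgeR). Each pair of ranges overlapped only at the edge. One fit of all 30 embryos called 6 genes on Day 12: PMVK, NSDHL and DGAT1 higher in females, and SCD, ELOVL5 and ACSL1 lower. That fit called 20.3% of all genes on Day 12. NSDHL, EBP and ACSL4 are X-linked. On Day 8 the log2 ratio of female over male was 0.80 ± 0.35 for ACSL4 (unadjusted p = 0.0381, adjusted p = 0.999, edgeR). It was 0.23 ± 0.09 for NSDHL (unadjusted p = 0.0277, adjusted p = 0.894, edgeR) and 0.04 ± 0.14 for EBP. On Day 12 NSDHL had 63.4 ± 21.6 CPM in females and 44.8 ± 12.9 in males, and EBP 103.7 ± 32.8 and 72.7 ± 24.1 (mean ± SD, n = 5 each), with ranges that overlapped. ACSL4 then had 1.39 ± 0.54 CPM in females and 2.25 ± 2.11 in males, with ranges that also overlapped. No change of the sex difference from day to day was called for any of the 41 genes (FDR 0.05, 6-group fit), and without adjustment p was below 0.05 for 0 genes between Days 8 and 10, 8 between Days 10 and 12 and 8 between Days 8 and 12, where 0.763%, 18.9% and 21.8% of all genes were. DESeq2 called it for ELOVL5 and ACSL1 from Day 8 to Day 12, where it called 2.64% of all genes with an adjusted p, and for no gene of the list in the other intervals.

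Other genes of lipid metabolism were taken from 4 lists with 84 genes in the table. Over all genes tested, 9.88% rose and 4.20% fell from Day 8 to Day 10, and 14.9% rose and 8.39% fell from Day 10 to Day 12. Of the sterol handling list, 1 of 17 genes rose and 3 fell from Day 8 to Day 10, and 2 rose and 4 fell from Day 10 to Day 12. NPC1, which carries cholesterol out of the lysosome, ranged from 434 to 716 CPM on Day 8, 65.7 to 113 on Day 10 and 7.02 to 36.4 on Day 12 without overlap, and fell by 2.72 and 1.88 on the log2 scale. SOAT1, which esterifies cholesterol, had medians of 824, 98.9 and 110.7 CPM and fell by 2.87 to Day 10. NPC2, the partner of NPC1, fell by 2.57 to Day 12. LPCAT3, a lysophospholipid acyltransferase, fell by 1.56 and NR1H3, a sterol-sensing receptor, rose by 2.02 in the second interval.

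Of the 19 other fatty acid enzymes, 4 rose and 1 fell from Day 8 to Day 10, where 9.88% of all genes rose and 4.20% fell. From Day 10 to Day 12, 3 rose and 5 fell, where 14.9% of all genes rose and 8.39% fell. ACSS2, which makes acetyl-CoA from acetate, rose by 2.07 from a median of 52.8 CPM to 207. TECR and HACD3, which finish each round of elongation, rose by 1.40 and 1.36 and fell by 1.03 and 1.27 in the second interval, the profile of ELOVL6. FADS3, a gene beside FADS2, fell by 4.54 from Day 10 to Day 12, from a median of 102 CPM to 3.498, and ELOVL2 rose by 2.26.

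In the list of other glycerolipid and fatty acid transport genes, 6 of 26 rose and none fell from Day 8 to Day 10, where 9.88% of all genes rose and 4.20% fell. From Day 10 to Day 12, 6 rose and 7 fell, where 14.9% of all genes rose and 8.39% fell. MGLL and LIPE, which hydrolyse glycerides, rose by 3.22 and 3.21 and then fell by 2.59 and 1.76. SLC27A6, a fatty acid transporter, ranged from 0 to 1.97 CPM on Day 8 and from 5.54 to 369 on Day 10. ACSL6, another acyl-CoA synthetase, had medians of 617 and 818 CPM on Days 8 and 10 and of 1.93 on Day 12, and fell by 8.55 on the log2 scale. Of the 22 genes of fatty acid oxidation, 2 rose and 1 fell in the first interval and 4 rose and 2 fell in the second, shares near those of all genes in both intervals. CPT1A, the gate for entry of fatty acids into mitochondria, went from a median of 49.6 CPM to 16.2 and then 268. It fell by 1.40 to Day 10 (SE 0.19, adjusted p = 4.91e-07) and rose by 3.88 ± 0.21 (adjusted p = 5.22e-16) to Day 12, while SLC25A20, the carrier that follows it, rose by 1.84 in the second interval.

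**Figure D5:**
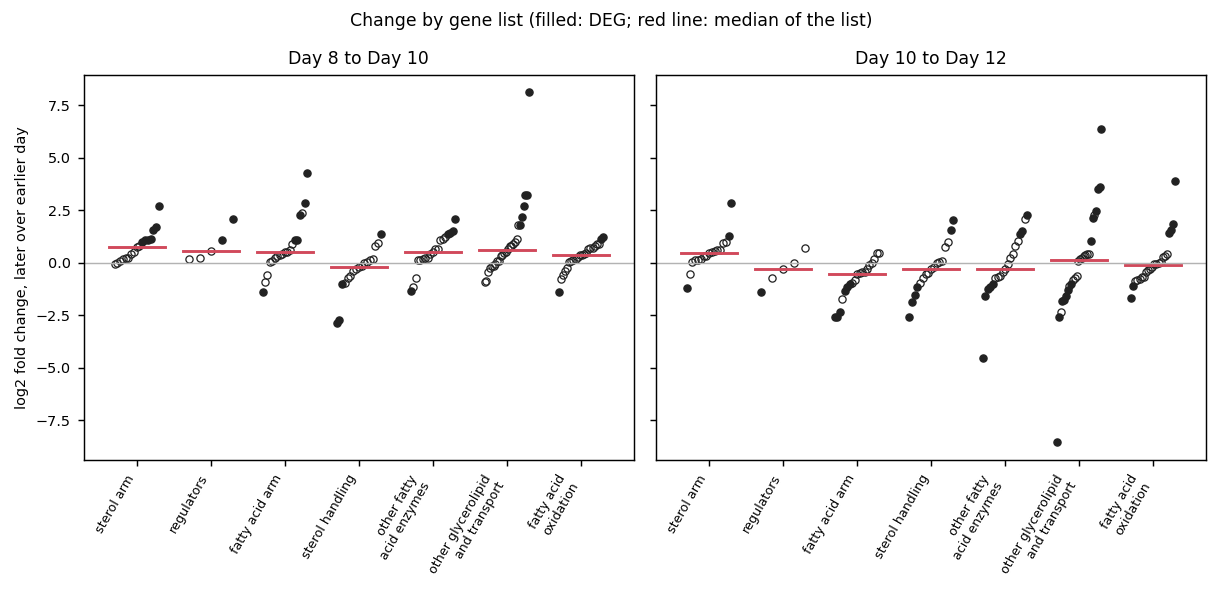
Log2 fold change of every gene (points) from Day 8 to Day 10 and from Day 10 to Day 12 in the sterol arm, the regulators, the fatty acid arm and 4 other lists of lipid genes; filled points are DEG and the red line is the median of a list. With all embryos included, the median of the sterol arm stays above 0 in both intervals (0.76 and 0.45), that of the fatty acid arm changes sign (0.50 and -0.52), and the widest spread is among the other glycerolipid genes.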

How the data were processed

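Libraries of single embryos were prepared with a stranded mRNA kit. The authors deposited raw counts for NCBI genes, without normalization, in a table of all embryos and a table for each day. The authors trimmed reads with Trim Galore, cut 3 bases at the 5′ end, aligned to Sscrofa11.1 and filtered genes by CPM. The aligner, the counter, its strand setting and the CPM cutoff are not given in the sources used here. For 4 members an overlapping gene is in the count table, so their counts may share reads.

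Symbols were matched through the RefSeq gene table of Sscrofa11.1, which also gave the coordinates. Comparisons between days used the 13103 genes of all embryos, and comparisons between sexes the 11405, 11675 and 12220 genes of each day. The authors' edgeR robust GLM gave the thresholds (an FDR of 0.001 and a log2 fold change of 1 between days, and an FDR of 0.05 between sexes). Here the edgeR quasi-likelihood F test (robust, TMM factors, Benjamini-Hochberg adjustment over all genes of a table) was used, with 3 day groups in 1 fit. The robust GLM, DESeq2, RLE factors, library size alone, sex as a term, 10 counts in 5 embryos, 2 days alone, a mean of 1 CPM and 1 sex alone were alternatives. Leaving out male d12_m_307 or female d12_f_245 of Day 12 was chosen after the data were seen. The tests were checked on simulated counts. SE is that of the log2 fold change. Log2 CPM used a prior count of 2. The members, the other lists and the markers were chosen with earlier results of these data known. Members are all described, and of the other lists the 4 DEG with the largest change per interval were eligible to be named. Some genes that were eligible under this rule are not reported here. Motifs in promoters and protein sequences were not analysed here.

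Versions were R 4.3.3, edgeR 4.0.16, limma 3.58.1, DESeq2 1.42.0, Python 3.11.15, matplotlib 3.10.9, scipy 1.17.1, pandas 2.3.3 and numpy 2.4.6. A total of 3 counts, taken as the floor, is 0.434 CPM in the smallest library, and counting intervals cover counting error only.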

Additional observations from a re-analysis of the deposited data

Results flagged for a closer look

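A test of whether a single embryo lies far from the other embryos of its day (Dixon's test at 95%, 10 embryos, log2 CPM) was made for each of the 41 genes on each day. It picked out 8 of 123 cases, a share near the 1 in 20 that chance gives, and the same test was not counted over all genes. The cases are therefore listed as a description only. Of the 8 cases, 4 high ones were in male d12_m_307 of Day 12, and 3 of these act in sterol synthesis: ACAT2 at 254 CPM (the others 83.8 to 127), CYP51A1 at 204 CPM (35.4 to 80.5) and SC5D at 35.0 CPM (8.25 to 15.8). The fourth was INSIG1 at 68.1 CPM (5.50 to 15.6). In female d12_f_245 of Day 12, the smallest library, ACACA was low at 120.8 CPM (the others 171 to 236) and FADS1 at 22.7 CPM (55.7 to 146). ACSL4 was low in female d10_f_433 of Day 10 at 1.32 CPM (2.74 to 4.59), and SCARB1 was high in male d08_m_121 of Day 8 at 68.6 CPM (32.7 to 47.9).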

How the results depend on the processing

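Of 984 alternative values for single genes, 917 kept their direction and side of the threshold, 26 lost a call, 14 gained one and 27 changed sign. All 27 changes of sign were in genes that were not called, and of 300 alternative values for called genes 274 kept the call. The count of 15 genes called between Days 8 and 10 became 9 with library size alone and 9 in male embryos alone, and the 3 genes that rose and fell became 5 in the robust GLM, with INSIG1 and LPL. Between sexes, Day 8 gave 1 gene in the robust GLM, Day 12 gave 6 in 1 fit of all embryos, and a changing sex difference was called for 2 genes from Day 8 to Day 12 by DESeq2. The causes were not tested. With library size alone, r with the Day 10 index was -0.13 for the sterol arm and 0.78 for the fatty acid arm. In the 6 embryos numbered in the 300s it was -0.86 for the sterol arm, 0.64 for the fatty acid arm, 0.53 for SREBF2 and 0.071 for SREBF1, and r between both arms was -0.23.

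Log2 fold changes that changed sign from Day 8 to Day 10 were, with library size alone, those of NSDHL (-0.089), EBP (-0.0027), INSIG2 (-0.012), ACLY (-0.15) and ACSL1 (-0.092), in female embryos alone those of ACAT2 (0.069), DHCR7 (0.00094) and FABP5 (-0.029), and in the robust GLM that of FABP5 (-0.19). From Day 10 to Day 12 they were, with library size alone, SCAP (0.18), ACLY (0.11) and DGAT1 (0.16), in female embryos alone FABP5 (0.31) and DGAT1 (0.18), in male embryos alone MVD (-0.18), NSDHL (-0.15), SCAP (0.043) and ACLY (0.17), in the robust GLM MVD (-0.27) and NSDHL (-0.10), and with a mean of 1 CPM SCAP (0.0039). Leaving out female d12_f_245 or male d12_m_307 of Day 12 gave -0.053 and -0.035 for MVD, -0.11 and -0.0093 for NSDHL, 0.018 and -0.018 for SCAP and -0.091 and 0.019 for DGAT1.

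Leaving out each embryo in turn gave 0 genes called between sexes on every day. Genes at a few counts, such as TM7SF2 on Day 8, are limited by depth. Whole embryos of unknown litter limit what a difference between days or embryos can be tied to. A search for motifs in promoters was not run. No analysis paired by litter was possible because the gilt of each embryo was not given.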
